A study of Mus musculus with 51 samples.

Results

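The regions described here are H3K27ac sites of mouse astrocyte progenitors that were still called after 1 day of astroglial differentiation and were no longer called after 5 days. They were picked from the deposited H3K27ac peak list of the progenitors (aNPC): a peak on chromosomes 1 to 19 is a member if it overlaps, by 1 bp or more, a peak of the early astrocyte list (eA, 1 day) and no peak of the late astrocyte list (lA, 5 days). Of 77553 aNPC peaks, 7235 were members (9.33%), which is 16.3% of the 44309 aNPC peaks that overlap an eA peak. The measured values that chose them are the presence of an eA peak and the absence of an lA peak, so the H3K27ac values of the members are descriptions and carry no test.

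The series holds 51 samples, and the lists used here come from 12 chromatin immunoprecipitation libraries, 2 for each of 3 stages and 2 marks, which the authors merged before calling peaks. All stages descend from mouse embryonic stem cells of the C57/BL-6 background grown in vitro. The aNPC were kept in medium with EGF and FGF-2. The astrocytes were grown in DMEM with 1% FBS, B27 and LIF for 1 day (eA) or 5 days (lA). The loss of the growth factors, the added serum and LIF, other differences of the media, and the time in culture therefore cannot be told apart. Each stage and mark has 1 merged list and no replicate list, so no value below has a replicate error, and the read depth behind the lists is unknown.

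H3K27ac, acetylation of lysine 27 of histone H3, lies over active promoters and enhancers and is removed quickly when a regulatory element is switched off. H3K4me1, monomethylation of lysine 4 of the same histone, marks enhancers whether or not they are active, and it can stay on an element after the acetylation is gone. Neural progenitors divide in the presence of EGF and FGF-2, and genes of DNA replication and mitosis are among those with active promoters in dividing cells.

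Start sites of cell division genes were among the members. Among the 33 cell cycle genes examined, 32 had an H3K27ac peak within 1 kb of a coding start site in both aNPC and eA, and 12 of these had none there in lA (37.5%). Over all coding genes, 10996 had such peaks in aNPC and eA, and 503 of them had none in lA (4.57%). The 12 genes were Ccnb1 and Ccnb2 (B-type cyclins of mitosis), Mki67 (the Ki-67 antigen of dividing cells), Top2a (the topoisomerase that untangles replicated chromosomes), Bub1 (a kinase of the spindle checkpoint), Mcm2, Mcm3 and Mcm6 (subunits of the replicative helicase), Cdc6 (which loads that helicase), Ccne2 (cyclin E2, of entry into S phase), Ccnd1 (cyclin D1) and Cdk6 (a partner kinase of D-type cyclins). The peaks of Ccnb2 in aNPC and eA lie on either side of its start site without overlapping, so this gene is counted by gene but has no member.

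To show what lies at these start sites, the 200 bases upstream of the start are given for 5 of the 12 genes, from windows that hold no annotated UTR, read 5′ to 3′ on the strand of the gene from the mm9 genome. Capitals mark matches on either strand to letters known from promoters of cell cycle genes, chosen after the members had been seen: the CHR element (TTTGAA), the CCAAT box (CCAAT) and a pair of E2F sites (TTTCCCGC and TTTGGCGC).
Mki67, chr7:142908063-142908262, minus strand: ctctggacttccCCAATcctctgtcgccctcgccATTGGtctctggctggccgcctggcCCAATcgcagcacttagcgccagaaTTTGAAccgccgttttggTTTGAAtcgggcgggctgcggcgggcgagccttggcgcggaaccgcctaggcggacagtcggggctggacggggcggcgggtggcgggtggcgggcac
Top2a, chr11:98885504-98885703, minus strand: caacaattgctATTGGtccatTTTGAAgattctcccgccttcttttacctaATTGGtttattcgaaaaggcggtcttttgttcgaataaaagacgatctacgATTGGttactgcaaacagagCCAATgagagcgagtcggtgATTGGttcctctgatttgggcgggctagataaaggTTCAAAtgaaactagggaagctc
Bub1, chr2:127657602-127657801, minus strand: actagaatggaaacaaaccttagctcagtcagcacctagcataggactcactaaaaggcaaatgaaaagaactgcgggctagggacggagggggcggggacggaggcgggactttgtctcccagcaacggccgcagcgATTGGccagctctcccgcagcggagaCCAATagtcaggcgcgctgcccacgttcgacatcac
Mcm3, chr1:20810360-20810559, minus strand: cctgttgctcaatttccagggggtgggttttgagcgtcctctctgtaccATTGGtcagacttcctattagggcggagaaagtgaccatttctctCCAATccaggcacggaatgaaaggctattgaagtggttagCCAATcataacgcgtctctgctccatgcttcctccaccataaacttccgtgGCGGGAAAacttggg
Mcm2, chr6:88848775-88848974, minus strand: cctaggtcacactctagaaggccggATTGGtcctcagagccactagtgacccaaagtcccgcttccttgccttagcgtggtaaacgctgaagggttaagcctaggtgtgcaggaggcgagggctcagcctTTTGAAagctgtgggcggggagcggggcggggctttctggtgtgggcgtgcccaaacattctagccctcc

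Top2a held 5 CCAAT boxes and 2 CHR matches in this window and Mki67 held 3 and 2. The printed windows are not all such windows, and each of them holds a match, while the windows of 3 of the 12 genes held none of the searched letters. Of the 12 cell cycle genes, 8 had a CCAAT box (66.7%, Wilson 95% interval 39.1 to 86.2) and 4 had a CHR match (33.3%, 13.8 to 60.9). The same letters were found at 30.1% and 6.49% of the 11296 genes with start-site H3K27ac in aNPC, and at 28.1% and 10.17% of 43976 coding start sites. Over all 503 genes without the peak in lA the shares were 33.0% and 9.94%. The E2F letters TTTCCCGC and TTTGGCGC were found at 2 and 1 of the 12 genes (16.7% and 8.33%). They were at 1.58% and 0.602% of the 11296 genes, and at 2.58% and 0.199% of the 503. A match is a description of the letters and was not tested.

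The strongest start-site peak of each of these 12 genes ranked lower in eA than in aNPC. This was not particular to them. The cell cycle genes that kept a start-site peak in lA ranked lower in eA too, except Ccnd3, Cdc20, Aurka and Pcna. Strength is given as the −log10 q of the peak caller and as its percentile, the share of the peaks of its own list with a value no higher, because −log10 q depends on depth and cannot be compared between lists. The stronger of 2 members in Ccnb1 (chr13:101555662-101556485, centred 283 bp downstream of the start) stood at percentile 95.7 in aNPC, with a −log10 q of 134 and a fold enrichment of 14.9. Its eA peak stood at percentile 3.20 (2.97 and 2.99). The nearest lA peak was 9075 bp away. The weaker Ccnb1 member, centred at -275 bp, went the other way, from percentile 23.8 in aNPC to 55.8 in eA, and its eA peak (−log10 q of 11.8) is the strongest eA peak at this start site. The member in Mki67 (chr7:142907033-142908085, 503 bp downstream) stood at percentile 95.4 in aNPC and 50.4 in eA, and lay 16334 bp from an lA peak. The member in Top2a (chr11:98884617-98885538, 425 bp downstream) stood at percentile 94.8 in aNPC and 64.8 in eA, 16443 bp from an lA peak. All 3 lie in introns just past the start, and none had an lA peak nearer than 9075 bp.

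Members at 3 helicase genes ranked lower in eA as well. The Mcm6 member (chr1:130255412-130256275) went from percentile 93.5 in aNPC to 76.3 in eA, the Mcm3 member (chr1:20809773-20811037) from 85.9 to 43.4, and the Mcm2 member (chr6:88848114-88848706) from 85.1 to 30.6. The Bub1 member (chr2:127657058-127657652) had a −log10 q of 58.4 in aNPC (percentile 86.4) and 3.72 in eA (percentile 9.90), while the strongest eA peak at its start site stood at percentile 42.2. Ccne2 had 3 aNPC peaks and all 3 were members, at least 33314 bp from any lA peak. The weakest of them, at -101 bp, stood at percentiles 31.5 in aNPC and 35.9 in eA, and the others ranked lower in eA. The Cdc6 member stood at percentiles 52.2 in aNPC and 40.4 in eA, and the strongest aNPC peak at its start site, at 81.4, is another peak. Ccnd1 was nearer to the limit of the rule: its member (chr7:152124681-152125681) lay 721 bp from an lA peak.

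**Figure D1:**
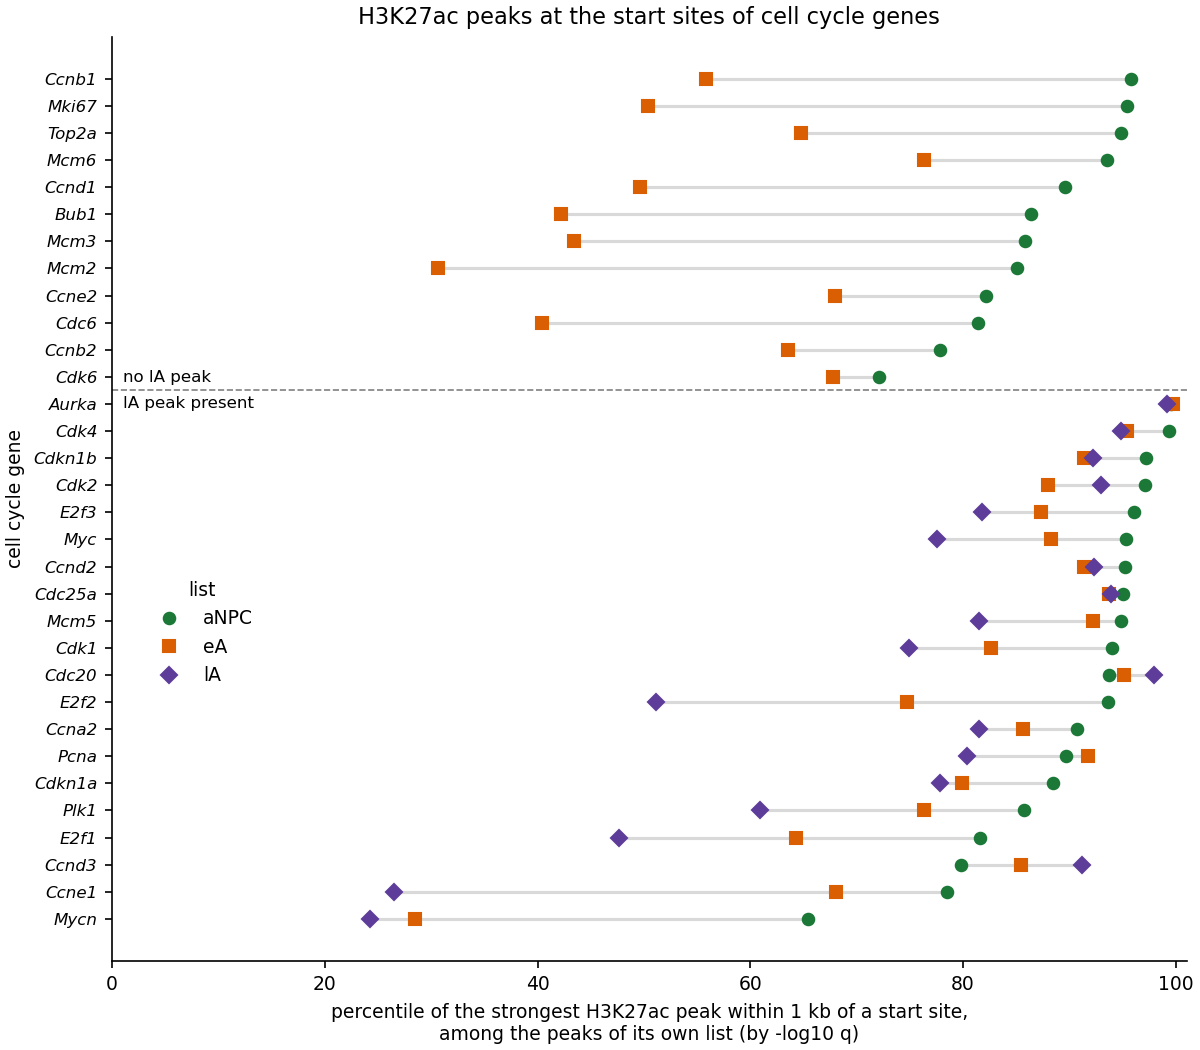
Percentile, within its own list, of the strongest H3K27ac peak within 1 kb of a start site (horizontal axis) for the 32 cell cycle genes with such a peak in aNPC and eA (rows); circles are aNPC, squares eA and diamonds lA. The 12 genes above the dashed line have no lA peak, and in each of them the eA peak ranks lower than the aNPC peak, from percentile 95.7 to 55.8 for Ccnb1. Below the line the eA peak ranks lower as well, except at Ccnd3, Cdc20, Aurka and Pcna.

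Other cell cycle genes held their start-site peak at 5 days. Mcm5, a further subunit of the helicase, had 0 members among 6 aNPC peaks, and its start-site peak stood at percentiles 94.8, 92.2 and 81.5 in aNPC, eA and lA. Aurka (a mitotic kinase) stood at percentile 99.2 of the lA list, Cdc20 (an activator of the anaphase-promoting complex) at 97.9 and Cdk4 (a G1 kinase) at 94.9. E2f1 and E2f2, transcription factors of S phase entry, had start-site peaks at percentiles 81.6 and 93.6 in aNPC, 64.3 and 74.8 in eA, and 47.7 and 51.2 in lA. The other 20 of the 32 genes had a start-site peak in lA.

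Counted by peak, 29 of the 109 aNPC peaks given to cell cycle genes were members (26.6%, 19.2 to 35.6). Each peak was assigned by its nearest coding start, provided that it lay in a promoter, exon or intron or less than 50 kb from that start. Over all genes, 5875 of 60360 peaks given a gene were members (9.73%), which is the background for the list. The 29 belonged to 20 genes: E2f1 had 4, Ccne2 and E2f2 3 each, Ccnb1 and Ccnd2 2 each, and 15 genes had 1. Of the 29, 20 were centred within 1 kb of a start site, out of 51 aNPC peaks of the list at start sites (39.2%), against 9.35% of all 15537 start-site peaks. The start-site share was 30.0% for neurogenic genes (9 of 30), 21.7% for AP-1 and Atf genes (5 of 23) and 21.6% for neural progenitor genes (8 of 37). Oligodendrocyte lineage genes had 22.2% (2 of 9). It was thus above that of all genes on several other lists too, which was not tested. Lists below it included Notch pathway genes (8.70%, 2 of 23) and the transcription factors that the study depleted (0 of 11). The median distance of the 29 to an lA peak was 9765 bp, and 19 were more than 1 kb away. Others lay beside a retained peak: the members of Ccna2, Plk1, E2f2, Mycn and Pcna at their start sites were 295, 189, 200, 160 and 428 bp from an lA peak.

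Neurogenic genes formed the next list by share. Of 118 aNPC peaks given to them, 21 were members (17.8%, 11.9 to 25.7), and 12 of these 21 were more than 1 kb from an lA peak. Of 13 neurogenic genes with start-site H3K27ac in aNPC and eA, 5 had none in lA (38.5%): Eomes (a T-box factor of intermediate progenitors), Dll3 (a Notch ligand family member), Insm1 and Myt1 (zinc finger factors of neuronal commitment) and Elavl4 (the neuronal RNA-binding protein HuD). Insm1 stood at percentile 78.1 in aNPC and 9.90 in eA, Myt1 at 78.4 and 18.95, Dll3 at 69.7 and 26.7, and Elavl4 at 67.5 and 65.0. None of the 2 members of Myt1 was centred within 1 kb of a start site, so its values need not be those of a member. Eomes was weak throughout, at 35.4 and 42.2. Dll1, Sox4, Sox11, Tubb3 and Mtap2 are on the same list and had a start-site peak in lA. Mtap2, which encodes the microtubule protein MAP2, nevertheless had 9 members among 30 peaks, 3 of them at start sites. Elavl4 had 3 of 4, and Insm1 and Myt1 had 2 each, of 16 and 11.

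Counted over all their peaks, lists of progenitor identity and signalling lay close to the background. Neural progenitor genes had 22 members of 182 peaks (12.1%, 8.12 to 17.6): Msi2, an RNA-binding protein, had 4 of 40, Zfp521, a zinc finger factor, 3 of 18, and Lhx2 and Hes1 2 each. Only Nr2e1 (the nuclear receptor Tlx) and Dach1 among 20 progenitor genes had start-site H3K27ac in aNPC and eA and none in lA. Sox2, Sox9, Pax6, Nes, Vim and Fabp7 had start-site peaks in all 3 lists. Notch pathway genes had 19 of 157 (12.1%, 7.89 to 18.1), with Jag1 (a ligand) 4 of 19, Maml3 (a coactivator) 3 of 20, Nrarp (a feedback inhibitor) 2 of 3 and Hes1 (a target) 2 of 10. The EGF and FGF pathway genes had 28 of 279 (10.0%, 7.04 to 14.1), and Etv1, an ETS factor induced by FGF signalling, held 7 of them among its 27 peaks. Spred2, an inhibitor of the pathway, had 3 of 10, and Egr1, an immediate early factor, 2 of 4. All 25 pathway genes with start-site H3K27ac in aNPC and eA had it in lA.

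Glial genes had shares near the background. Astrocyte genes had 21 members of 248 peaks (8.47%, 5.60 to 12.6), spread over Nfib (5 of 60), Nfia (3 of 42), Slc1a3 (the glutamate transporter GLAST, 3 of 15), Nfix (2 of 11), Slc4a4 (2 of 16) and 6 genes with 1 each, and none of 21 astrocyte genes lost its start-site H3K27ac. Oligodendrocyte lineage genes had 13 of 121 (10.7%, 6.39 to 17.5), with 2 each at Cspg4 (the NG2 proteoglycan) and Ptprz1 (a receptor phosphatase), and Sox8 was without a start-site peak in lA. Genes of AP-1 and Atf factors had 12 of 82 (14.6%, 8.57 to 23.9): Fosb had 2 of 6, Fosl1 2 of 2 and Maf 2 of 9, and Fosb, Fosl1 and Cebpb had no start-site peak in lA. Only 4 of those 12 lay over 1 kb from an lA peak. Forebrain patterning genes had 16 of 110 (14.5%, 9.16 to 22.3), led by Irx3 (3 of 8), Pou3f3 (3 of 12), Lhx2 (2 of 7) and Nr2f1 (2 of 12). The 5 transcription factors that the study depleted had 4 of 67 (5.97%, 2.35 to 14.4), 3 at Nfia and 1 at Stat3.

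Markers of other cell types had few aNPC peaks in all. Microglial, endothelial and mesenchymal markers had 1 member each, of 18, 19 and 25 peaks (P2ry12, Flt1 and Tagln; 5.56%, 5.26% and 4.0%), and pluripotency genes had 3 of 20 (Esrrb 2 and Klf4 1; 15.0%, 5.24 to 36.0). The intervals of all 4 shares include the 9.73% of all peaks given a gene. Of 2 pluripotency genes with a start-site peak in aNPC and eA, Esrrb had none in lA. Several genes stand on more than 1 list, among them Hes1, Dll3, Lhx2, Pax6, Otx1 and Nfia. When only members more than 1 kb from lA peaks were counted, the shares were 17.4% for cell cycle genes, 10.17% for neurogenic genes and 4.88% for AP-1 and Atf genes, against 5.41% over all genes.

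**Figure D2:**
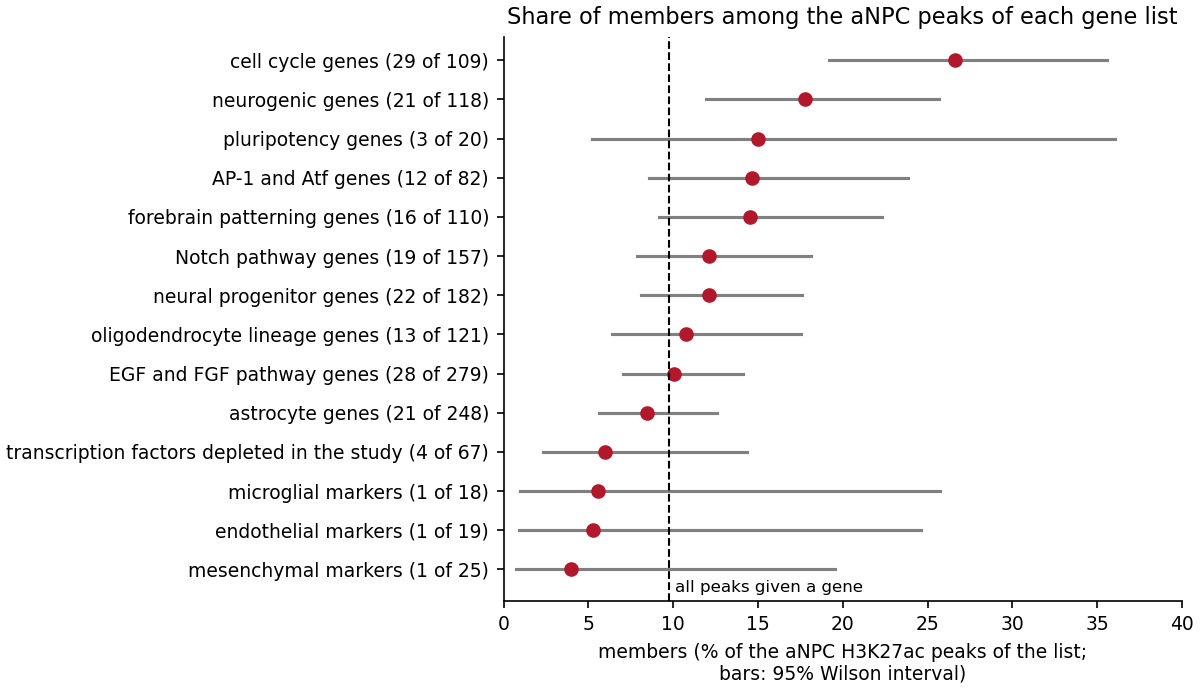
Share of members among the aNPC H3K27ac peaks given to the genes of each list, with counts at the left and Wilson 95% intervals as bars; the dashed line is the share over all peaks given a gene (9.73%). The cell cycle list stands highest at 26.6%, and the neurogenic list follows at 17.8%.

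By gene, the members were widely spread. They were given to 3880 genes, of the 13959 with an aNPC peak, and 2681 of these genes had 1 member, while 96 had 5 or more. The genes with most members were led by Pcdh9 (a protocadherin, 11 of 38 aNPC peaks), Elmo1 (a Rac activator, 11 of 48), Qk (the RNA-binding protein Quaking of glial cells, 10 of 31), Pde4d (a cAMP phosphodiesterase, 10 of 49) and the short gene model Gm10308 (10 of 32). Mtap2 (9 of 30), Ntm (a cell adhesion protein, 9 of 33), Srgap2 (9 of 44), Sema5a (a semaphorin, 9 of 45) and Tcf4 (a basic helix-loop-helix factor, 9 of 52) followed. Nav3 (of 25 peaks), Ptn (the growth factor pleiotrophin, of 31), E130114P18Rik (of 42) and Opcml (of 62) had 8 each, and Glis3 (of 18), Bptf (of 19), Dgkd (of 22), Akap13 (of 24), Sfi1 (of 24) and Etv1 (of 27) had 7 each. These 20 genes were chosen by their count of members, and their shares ranged from 12.9% at Opcml (6.69 to 23.4) to 38.9% at Glis3, beside 9.73% over all genes. At Sema5a all 9 members were over 1 kb from an lA peak, with 31 of its 45 peaks present in aNPC alone.

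The longest run of members spaced by 10 kb or less held 7 in 23.0 kb at Ptn (chr6:36712494-36735456), and 5 lay in 16.1 kb at Sfi1 (chr11:3065489-3081585). In all, 1970 members (27.2%) had another member within 10 kb. No such share was computed for the other aNPC peaks, so it cannot be said whether this is high or low. Members made up between 8.41% (chromosome 3) and 10.8% (chromosome 15) of the aNPC peaks of each chromosome. For 8 genes with 3 or more aNPC peaks every peak was a member, and these included Ccne2 and Kif23, a kinesin of cytokinesis.

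The strongest members away from lA peaks were mostly start sites too. Among members more than 1 kb from every lA peak, the 12 with the highest rank in both lists were those nearest to Dot1l (a histone H3 lysine 79 methyltransferase), Kbtbd8 (a ubiquitin ligase adaptor), Tsen15 (a subunit of the tRNA splicing endonuclease), Srebf1 (a regulator of lipid synthesis), Rcc1 (the exchange factor of Ran), Sdc3 (the proteoglycan syndecan-3), 4931406P16Rik, Atad5 (which unloads the PCNA clamp), B3galtl (a glycosyltransferase), Zfp36l1 (an mRNA decay factor), Dock3 (a Rac activator) and Srpk2 (a splicing factor kinase). The Kbtbd8 member (chr6:95067867-95068735) stood at percentiles 91.0 in aNPC and 90.1 in eA, 138350 bp from an lA peak. The B3galtl member (chr5:150480716-150481537) stood at percentiles 97.5 in aNPC and 86.1 in eA (−log10 q of 173 and 49.8). The Atad5 member (chr11:79902527-79903544) stood at percentiles 91.1 and 86.5.

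In 3 of these genes, Srebf1, Rcc1 and Sdc3, an H3K27ac peak lay within 1 kb of another annotated start site of the gene in lA. At the start site beside the member itself no lA peak was near, since the closest to these members were 3132, 7132 and 4202 bp away. Zfp36l1 and Srpk2, to which distant members were assigned, also had an lA peak within 1 kb of a start site, which makes 5 of the 12 genes. At Dot1l the nearest lA peak was 1480 bp away. The member nearest to Zfp36l1 (chr12:81269169-81269650, −log10 q of 240 in aNPC and 49.0 in eA) is centred at -55410 bp from that start, in an exon of Actn1, the gene of alpha-actinin 1. The member nearest to Srpk2 is centred at -35835 bp, where a minus sign means upstream, outside coding genes.

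Among members at promoters (centre between 1 kb before and 100 bp after any coding start), the 8 strongest members by the same rank and the same distance limit were at Atad5, Dock3, Mmachc (a vitamin B12 processing enzyme), Tnk2 (a tyrosine kinase), Rbm38 (an RNA-binding protein), Wdr76, Pot1b (a telomere protein) and Leprel4. For all 8 genes no lA peak lay within 1 kb of a start site. The Pot1b member (chr17:55851489-55852337) was the farthest from lA peaks, at 164960 bp. The Wdr76 member (chr2:121332176-121332696) overlapped no H3K4me1 peak at any stage.

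The 200 bases around the summit are shown for 2 of these members, 1 distal and 1 at a promoter, on the plus strand of mm9. Capitals mark matches to the 18 motifs searched at all distal members (below): 2 overlapping GC boxes at Srpk2, and an E-box (CAGATG) followed by an NF1 half-site at Mmachc. These 2 were picked because they hold 2 matches each; of the other windows read without UTR bases, those of Tsen15 and Tnk2 hold 1 and those of Kbtbd8 and Sdc3 hold 0.
Srpk2, chr5:23218107-23218306, plus strand: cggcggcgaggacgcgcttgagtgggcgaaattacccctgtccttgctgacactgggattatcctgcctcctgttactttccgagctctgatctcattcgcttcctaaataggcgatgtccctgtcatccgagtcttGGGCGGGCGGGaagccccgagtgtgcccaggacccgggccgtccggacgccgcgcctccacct
Mmachc, chr4:116380655-116380854, plus strand: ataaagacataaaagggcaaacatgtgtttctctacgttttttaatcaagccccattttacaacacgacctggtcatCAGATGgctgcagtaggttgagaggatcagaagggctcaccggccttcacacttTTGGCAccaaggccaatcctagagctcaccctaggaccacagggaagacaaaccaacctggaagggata

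Over all members, the H3K27ac peaks were weaker and narrower than the aNPC peaks that overlapped both later lists (37074 kept peaks) and stronger than those that overlapped neither (27939 aNPC-only peaks). The median −log10 q was 9.63 for members, 23.2 for kept peaks and 6.03 for aNPC-only peaks, and the median widths were 396, 656 and 284 bp. Members ranked at a median percentile of 49.3 in the aNPC list, and their eA peaks at 37.5 in the eA list, against 71.7 and 75.5 for kept peaks. The lA list is the longest of the H3K27ac lists, with 90545 peaks against 81348 in eA and 77553 in aNPC. Its median −log10 q is the lowest, 8.35 against 9.73 in eA and 9.78 in aNPC, and the depth behind the lists is unknown.

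The rule has a sharp limit, and many members lay close to it. The median distance to the nearest lA peak was 2181 bp, with 513 members (7.09%) within 100 bp, 3203 (44.3%) within 1 kb and 4032 (55.7%) farther away. Just inside the limit, 242 members lay 50 bp or less from an lA peak and had a median −log10 q of 5.97. Just outside, 323 kept peaks were overlapped over 50 bp or less and had a median of 5.38. For 721 members (9.97%) the eA peak itself overlapped an lA peak elsewhere along its length. The summit of 5156 members (71.3%) lay inside an eA peak, and the median member was covered by eA peaks over 58.4% of its length.

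**Figure D3:**
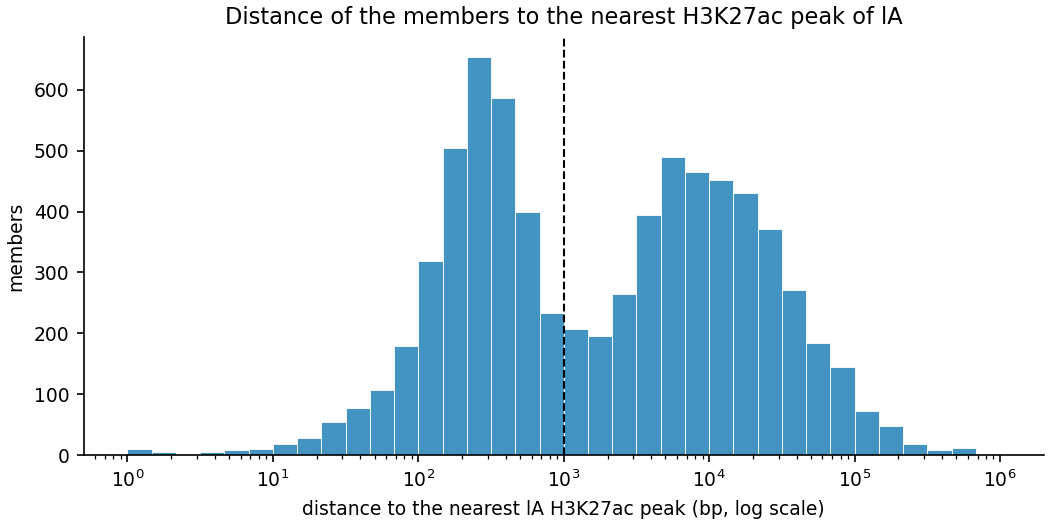
Number of members (vertical axis) by distance to the nearest lA H3K27ac peak in bp, on a log scale (members that touch an lA peak are drawn at 1 bp); the dashed line marks 1 kb. The counts have 1 rise below 1 kb, where 44.3% of members lie, and another between 3 and 50 kb.

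Members lay mostly outside promoters, as did all aNPC peaks. Of 7235, 813 (11.2%) were at promoters, 3389 (46.8%) in introns, 446 (6.16%) in exons and 2587 (35.8%) between genes. Over all aNPC peaks the shares were 11.3%, 44.5%, 4.69% and 39.5%, so the promoter share of members was that of the whole list. Promoters took 19.01% of kept peaks, a difference of -7.77 percentage points for members (95% interval -8.58 to -6.92, two-sided Fisher's exact test, p = 1.32e-61). Compared with aNPC-only peaks, of which 2.65% were at promoters, it was higher by 8.59 points (7.86 to 9.36, Fisher's exact test, p = 6.14e-178). Within 10 strata of the aNPC −log10 q the first difference did not pass (common odds ratio 0.963, Mantel-Haenszel chi-square test, p = 0.369). Tests over peaks treat each peak as independent and compare these merged lists, not replicate cultures. Members within 1 kb of a start were more often downstream than upstream of it, 59.3% of 1453 (56.7 to 61.8), as were kept peaks (64.1% of 12803).

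Most members were marked by H3K4me1 at every stage, also in lA, where H3K27ac was no longer called. H3K4me1 peaks overlapped 88.2% of members in aNPC (6383 of 7235), 86.8% in eA and 80.3% in lA (79.3 to 81.2), and 5466 members (75.5%) had the mark in all 3 lists. Over all aNPC H3K27ac peaks the shares were 82.2%, 79.5% and 72.2%. H3K4me1 was not used by the rule. Only 585 members (8.09%) had H3K4me1 in aNPC and eA and none in lA, and 554 (7.66%) had none at any stage. At cell cycle genes 26 of the 29 members had H3K4me1 in lA, and at the start sites of the 12 genes without H3K27ac in lA, 11 did. All 5 neurogenic genes had it there. Over all 503 genes without start-site H3K27ac in lA, 471 had H3K4me1 there in lA (93.6%), so these lists were near the share of all such genes.

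Members had H3K4me1 less often than kept peaks at each stage, with differences of -2.96 percentage points in aNPC (-3.77 to -2.18), -1.76 in eA (-2.62 to -0.932) and -4.99 in lA (-5.99 to -4.02). The two-sided Fisher's exact tests, adjusted by Benjamini-Hochberg over 8 tests, gave p = 1.65e-14, 2.79e-05 and 2.05e-25. Compared with aNPC-only peaks, members had it more often by 19.7 points in aNPC (18.7 to 20.6), 23.1 in eA (22.1 to 24.0) and 30.4 in lA (29.3 to 31.5). A wider peak overlaps others more readily, and members were wider than aNPC-only peaks (median 396 against 284 bp). Width was not adjusted for. The direction against kept peaks depends on the members beside lA peaks: members more than 1 kb from every lA peak had shares of 92.5%, 92.6% and 85.3%, and their odds ratios against kept peaks were 1.20, 1.61 and 1.00 (Fisher's exact test, unadjusted p = 0.00354, 4.28e-16 and 0.963). Members within 1 kb of an lA peak had 82.8%, 79.5% and 73.9%. Members more than 1 kb from lA peaks lay within 1 kb of a start site less often than kept peaks (14.9% against 34.5%). Away from start sites by over 1 kb, 95.9%, 95.7% and 93.9% of kept peaks had H3K4me1. The members more than 1 kb from lA peaks had lower shares there, 93.3%, 93.7% and 85.9%. Within 1 kb of a start site they had higher shares, 88.0%, 85.8% and 82.0% against 82.3%, 74.9% and 68.8% of kept peaks. Neither difference was tested.

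Loss of H3K4me1 between 1 and 5 days was more frequent at members than at kept peaks. Of 6277 members with H3K4me1 in eA, 664 had none in lA (10.6%, 9.84 to 11.4), against 5.95% of kept peaks, 29.6% of aNPC-only peaks and 13.4% of all aNPC H3K27ac peaks. The difference from kept peaks was 4.63 points (3.85 to 5.45, Fisher's exact test, adjusted p = 1.32e-36) and that from aNPC-only peaks -18.99 points (-20.0 to -18.0, adjusted p = 1.61e-223). The strongest H3K4me1 peak over a member stood at a median percentile of 78.4 in the aNPC list, 77.5 in eA and 72.9 in lA, and those over kept peaks at 83.2, 83.7 and 83.3.

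**Figure D4:**
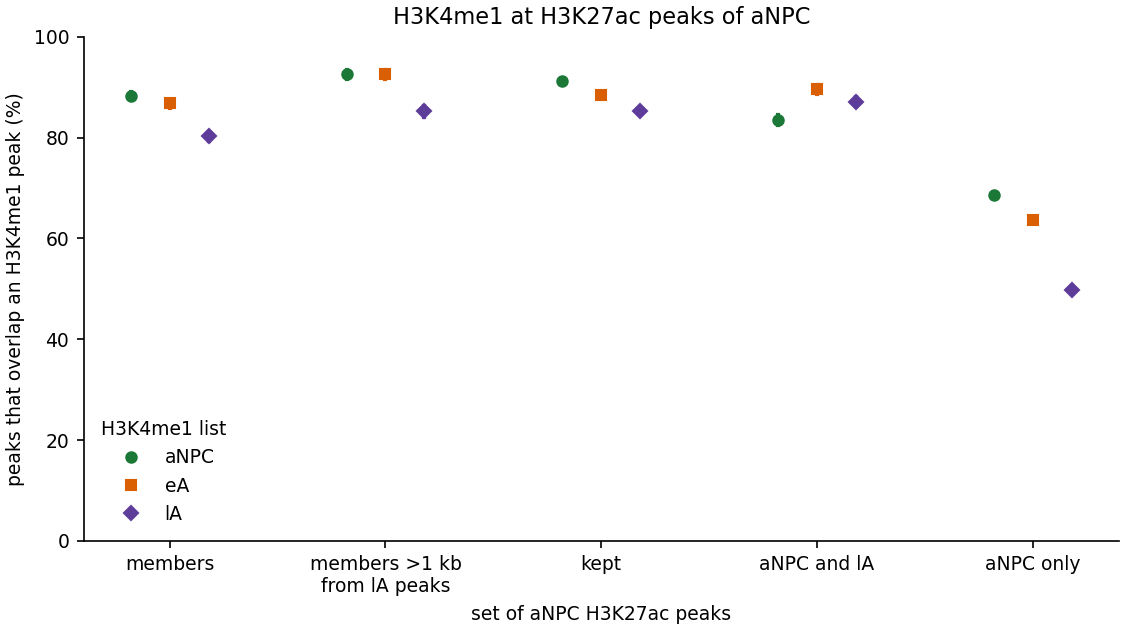
Percent of aNPC H3K27ac peaks that overlap an H3K4me1 peak in aNPC (circles), eA (squares) and lA (diamonds), for members, members more than 1 kb from lA peaks, kept peaks, peaks present in aNPC and lA but not eA, and aNPC-only peaks; bars are Wilson 95% intervals, mostly smaller than the symbols. Members stand at 88.2%, 86.8% and 80.3%, near kept peaks and above aNPC-only peaks.

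Around distal members the H3K4me1 peaks were centred on the acetylation summit. At the summits of the 5782 members over 1 kb from a start site, the cover by H3K4me1 peaks of aNPC, eA and lA was 85.0%, 83.1% and 69.0%. The cover 1 kb downstream was 23.1%, 25.3% and 19.4%. At kept peaks the summit values were 89.9%, 89.4% and 84.5%. H3K27ac peaks of lA covered no member summit, as the rule requires, and 11.3% of the positions 500 bp downstream, next to them.

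**Figure D5:**
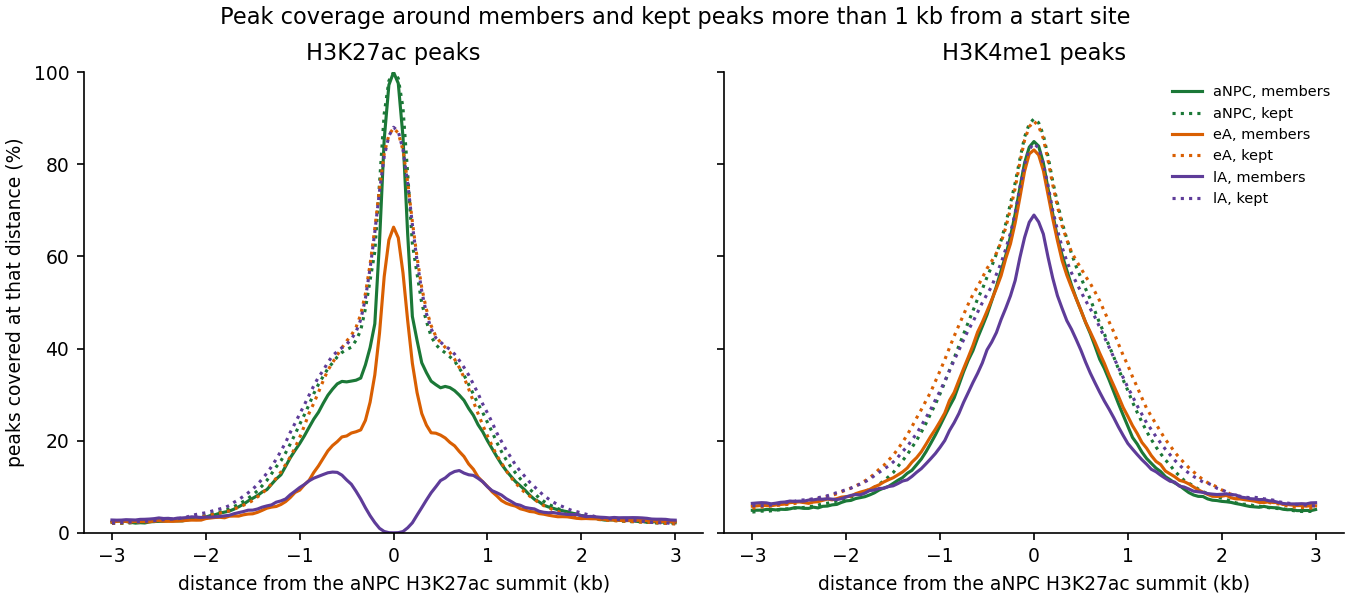
Percent of members (solid) and kept peaks (dotted), all more than 1 kb from a start site, covered by an H3K27ac peak (left) or H3K4me1 peak (right) at each distance from the aNPC H3K27ac summit in kb (plus strand to the right), for aNPC, eA and lA. H3K4me1 over members has its maximum at the summit in all 3 lists, lowest in lA at 69.0%, while lA H3K27ac is at 0 there by the rule.

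A few short motifs differed in frequency between distal members and the other peaks, by small amounts. In the 200 bp around the summit, 18 motifs were searched as exact letters on both strands in members, kept peaks and aNPC-only peaks outside promoters, giving 36 tests (two-sided Fisher's exact test, Benjamini-Hochberg). The median GC content was 48.0% in 6422 distal members, 50.5% in kept peaks and 47.0% in aNPC-only peaks. Against kept peaks 5 motifs passed Fisher's exact test: the NF1 half-site (TTGGCA; 12.6% of members against 10.9%, adjusted p = 9.15e-04), the POU octamer (ATTTGCAT; 1.25% against 0.819%, adjusted p = 0.00730), a homeobox core (TAATTA; 3.75% against 2.89%, adjusted p = 0.00304) and an E-box (CAGATG; 15.2% against 13.99%, adjusted p = 0.0419) were more frequent, and the GC box (GGGCGGG; 3.60% against 5.40%, adjusted p = 1.14e-08) less. Over all distal aNPC peaks these letters were found in 11.6%, 0.983%, 3.54%, 15.5% and 3.21%. Within 10 strata of GC content 0 of the 18 passed (Mantel-Haenszel chi-square test with Benjamini-Hochberg adjustment, 2 at an unadjusted p under 0.05), and the odds ratios of the homeobox core and the GC box changed side, to 0.964 and 1.03.

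Against aNPC-only peaks 4 motifs passed and all 4 did so within 10 strata of GC content as well. The GC box was more frequent in members (3.60% against 1.07%, Fisher's exact test, adjusted p = 3.11e-38). By the same Fisher's exact test, an ETS site (CAGGAAGT; 2.02% against 2.77%, adjusted p = 0.00363), the CAGATG E-box (15.2% against 16.9%, adjusted p = 0.00641) and an ATF4 site (ATTGCATCA; 0.140% against 0.452%, adjusted p = 9.15e-04) were less frequent. The ATF4 letters were present in only 9 members. With members more than 1 kb from lA peaks, the ETS and ATF4 differences did not pass Fisher's exact test (adjusted p = 0.217 and 0.0890). The AP-1 site (TGACTCA) was found in 3.83% of members, 3.61% of kept peaks and 3.96% of aNPC-only peaks, and neither difference passed Fisher's exact test (adjusted p = 0.650 and 0.830). The other motifs searched were CRE (TGACGTCA), SOX (CCATTGT), a further ETS site (CCGGAAGT), RUNX (AACCACA), STAT (TTCCNGGAA), TEAD (GGAATG), an E-box (CAGCTG), FOX (TGTTTAC), RFX (GTTGCCA) and RBPJ (GTGGGAA), and none of them passed in either comparison.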

How the data were processed

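Chromatin of aNPC, eA and lA was immunoprecipitated for H3K27ac (Abcam ab4729) and H3K4me1 and sequenced, and the authors merged 2 replicates per stage and mark and ran MACS2 on the result at default settings, without an input control. The submitters' processing notes name Bowtie and SAMtools 0.1.19 with build mm9. The peak lists deposited by the authors give each peak's fold enrichment (a ratio over the local background of the same library), the −log10 q at its summit and the summit's offset in bp. No counts or depths are in these lists, and the smallest differences they can show are unknown.

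Overlaps, locations and tests were computed with Python 3.11.15, NumPy 2.4.6 and SciPy 1.17.1, on chromosomes 1 to 19. No peak ran past a chromosome end of the mm9 genome used. Start sites are those of protein-coding transcripts of GENCODE M1. Of the listed genes, Sox1, Sox3, Dcx and Cebpd were not matched to a coding start on these chromosomes (Sox3 and Dcx are on chromosome X), and Map2 was matched as Mtap2. Shares have Wilson 95% intervals and differences Newcombe intervals, which cover counting error only.

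The members, gene lists and motifs were chosen with earlier results of these data known. The genes named are the 20 with most members, up to 4 per list with most members, and the 12 members overall and 8 at promoters with the highest lower percentile of −log10 q of the aNPC and eA peaks among members more than 1 kb from lA peaks. The count by gene at start sites, the CHR, CCAAT and E2F letters and the alternatives by distance to lA peaks for gene lists and tests were added after the values were seen. The interval code and the tests were tested on simulated data. The titles and descriptions of 8 of the 51 samples, all RNA libraries, disagree on their group, and none of these is used here. Of the 12 upstream windows of cell cycle genes, 5 are printed, and the others overlap a UTR or are not reported here.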

Additional observations from a re-analysis of the deposited data

How the results depend on the processing

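The number of members ranged from 5906 to 9777 under 6 other rules (a −log10 q of at least 5 in aNPC, lA or all lists, summits in place of peaks, 50% coverage, or equally long lists) and fell to 4032 when members within 1 kb of an lA peak were left out. With the same 4032, H3K4me1 shares were 92.5%, 92.6% and 85.3% in aNPC, eA and lA, and the odds ratios against kept peaks crossed to 1.20, 1.61 and 1.00. Over 1 kb from a start site their shares were still below those of kept peaks, 93.3%, 93.7% and 85.9% against 95.9%, 95.7% and 93.9%. That difference was not tested. With the summit inside the H3K4me1 peak the shares were 80.0%, 78.0% and 65.8%, and with H3K4me1 peaks of −log10 q of at least 5 they were 85.8%, 83.6% and 76.1%. The odds ratios against kept peaks stayed below 1 within 10 strata of strength, outside promoters, at start sites and with the stricter H3K4me1 lists. The promoter difference was lost within 10 strata of strength (odds ratio 0.963, Mantel-Haenszel chi-square test, p = 0.369).

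Motifs past the threshold against kept peaks numbered 5, and 0 within 10 strata of GC content, 8 in 500 bp windows and 2 with members more than 1 kb from lA peaks (the NF1 half-site and the GC box). Against aNPC-only peaks they numbered 4, and 8 and 2 under the last 2 settings, the last without the ETS and ATF4 sites. The homeobox and GC box odds ratios against kept peaks became 0.964 and 1.03 within 10 strata of GC content. The cause of these changes was not tested. The cell cycle share was 17.4% with members more than 1 kb from lA peaks (5.41% over all genes) and 37.5% counted by gene at start sites. With peaks in the gene or within 10 kb it was 26.1% (9.83% over all).

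No paired analysis was possible because the replicates were merged before peaks were called, and leaving out a replicate was not possible either. Depth behind the lists is unknown, and no member is shown to lack H3K27ac in lA, only to overlap no peak called there.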

Other observations

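Replication-dependent histone genes were not on any list and were looked at after the members had been seen. Of 67 annotated, 51 had H3K27ac within 1 kb of the start site in aNPC and eA, and 10 of these had none in lA (19.6%, beside 4.57% over all genes): Hist1h2ab, Hist1h2ad, Hist1h2ag, Hist1h2ah, Hist1h2bf, Hist1h2bj, Hist1h2bk, Hist1h3b, Hist1h4k and Hist3h2ba. The pairs Hist1h2ah and Hist1h2bk, Hist1h2ag and Hist1h2bj, and Hist1h2ad and Hist1h2bf carry the same peak values in both lists, so the 10 genes rest on fewer peaks. Histone genes are near-identical copies of each other, and since the authors kept each read at no more than 1 position, their values are uncertain.

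Among the 503 genes without a start-site peak in lA, 23 had an aNPC peak in the top 10% of the list, and 4 of these 23 are on the cell cycle list (Ccnb1, Mcm6, Mki67 and Top2a). The other 19 are Atad5 (unloading of the PCNA clamp), Aurkb and Spc25 (both of chromosome segregation), B3galtl, Chac1, D2Ertd750e, Dot1l, E130306D19Rik, E2f8 (a repressor of the E2F family), Gm5148, Gmnn (a regulator of replication licensing), Kbtbd8, Klhdc8b, Metap2, Mthfd2 (mitochondrial folate metabolism), Nptx1, Pou2f3, Rrm2 (deoxynucleotide synthesis) and Xkr5. They were named after their values were seen, and no list was tested on them.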
